A study of Mus musculus with 4 samples.

Results

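Transcript levels of 10 genes of fibroblast growth factor (FGF) signalling were examined in mouse embryoid bodies with and without Snai1. The genes were taken by name and grouped by role: the ligands Fgf4 and Fgf8, the receptors Fgfr1 and Fgfr2, the feedback inhibitors Spry1, Spry2, Spry4 and Dusp6, and the ETS transcription factors Etv4 and Etv5. They are 10 of the 17097 genes named on the array. All 21 probe sets paired with these genes alone were read, and each gene is represented by its probe set of highest mean value unless another is named.

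The study used embryonic stem cells labelled F/F (the control) and Snai1 knockout, which were aggregated in hanging drops and then kept in suspension as embryoid bodies. At 4 days the cells were sorted with an antibody to Flk1, the VEGF receptor encoded by Kdr that marks mesoderm with endothelial and blood potential. This gave a Flk1+ and a Flk1- fraction of each genotype. Each of these 4 groups was measured on 1 array, so no difference has a replicate check and no test was made. The labels of the knockout Flk1- sample give day 4 in one field and day 5 in another. How the knockout was made, and whether each line was 1 clone, is not stated in the labels.

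FGFs bind receptor tyrosine kinases together with heparan sulfate and act through RAS, RAF and MEK on the kinase ERK. ERK activity induces the Sprouty genes and Dusp6, whose products dampen the same pathway, and the ETS factor genes Etv4 and Etv5, so these transcripts are widely used as a readout of FGF and ERK activity. In stem cells and epiblast Fgf4 is a main source of ERK activation, and in the gastrulating embryo Fgf8 and Fgfr1 are needed for cells to leave the primitive streak, a step in which Snai1 represses epithelial genes.

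Values are log2 expression values, so a difference of 1 is 2-fold. A floor of 3.19, set at percentile 40 of the values of all genes, was used to set low values aside. It is a chosen cut without a detection call, so a value below it does not show that a transcript was absent. Of the 10 genes, 9 were above the floor on at least 1 array, and 18 of their 21 probe sets were. Where 4 values stand in a sentence without group names, they are those of the Flk1+ and Flk1- fractions of the control, then of the knockout. Kdr was at 8.92, 4.55, 9.03 and 3.88, high in both Flk1+ fractions. Snai1 was below the floor on all 4 arrays (2.56, 2.42, 1.88 and 1.94), so its values do not check the genotype labels. The Gapdh control probe sets give a sign of RNA and cDNA length, and the log2 signal at the 3' end exceeded that at the 5' end by 2.05, 1.76, 1.47 and 1.99. Knockout Flk1+ cells had the lowest of these values.

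Promoter sequence from RefSeq (build GRCm38.p6, from 250 bases before to 50 bases after a transcript start) was read for 6 of the 10 genes, with 7 start sites. Any window on the chromosome of Spry4 was left out, so this count does not show whether Spry4 has one. The sequence is shown for 3 genes whose values differ below in distinct ways: Fgf4, lower in Flk1+ cells on 3 of its probe sets by 2-fold or more, Etv5, also lower in Flk1+ cells, and Spry1, whose sort difference turned between the genotypes. Capitals mark a match to any of 4 motifs searched on both strands: the ETS motifs CCGGAAGT and AGGAAGT, the AP-1 motif TGANTCA, and CAGGTG, the E-box bound by Snail factors. The motifs do not overlap each other in these windows.
Fgf4, chr7:144861136-144861435, + strand: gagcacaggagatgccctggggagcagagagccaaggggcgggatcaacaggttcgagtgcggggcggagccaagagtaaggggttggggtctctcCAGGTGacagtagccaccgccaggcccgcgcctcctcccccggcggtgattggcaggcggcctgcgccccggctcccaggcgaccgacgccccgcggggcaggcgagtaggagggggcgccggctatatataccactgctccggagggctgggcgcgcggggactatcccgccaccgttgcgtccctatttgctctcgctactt
Etv5, chr16:22438319-22438618, - strand: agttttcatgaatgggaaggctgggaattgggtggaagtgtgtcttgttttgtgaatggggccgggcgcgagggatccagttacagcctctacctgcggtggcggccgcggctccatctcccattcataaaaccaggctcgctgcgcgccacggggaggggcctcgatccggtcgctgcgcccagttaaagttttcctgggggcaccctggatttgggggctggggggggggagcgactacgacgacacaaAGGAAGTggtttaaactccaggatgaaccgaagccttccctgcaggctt
Spry1, chr3:37639697-37639996, + strand: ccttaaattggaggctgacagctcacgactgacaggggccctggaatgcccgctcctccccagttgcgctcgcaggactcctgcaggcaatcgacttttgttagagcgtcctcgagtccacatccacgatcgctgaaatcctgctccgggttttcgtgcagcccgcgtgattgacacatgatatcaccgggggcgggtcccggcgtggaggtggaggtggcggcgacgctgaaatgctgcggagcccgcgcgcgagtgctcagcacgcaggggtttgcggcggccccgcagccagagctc

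The Fgf4 window held 1 match, to CAGGTG, which begins 154 bases before the start site. That hexamer occurs in 20.2% of the 32851 promoter windows in the table. The Etv5 window at the downstream of its 2 listed starts held 1 match, to AGGAAGT just after the start, which 9.35% of windows hold. CCGGAAGT and TGANTCA occur in 3.89% and 7.81% of windows and were found in none of the 7 member windows, and the windows of Dusp6, Fgfr2, Spry1, Spry2 and the other Etv5 start held no match to any of the 4. A match describes the letters and is not a binding site.

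Fgf4, the FGF of pluripotent cells, had 4 probe sets that fell into a group of 3 and a single one. The 3 probe sets of the first group are annotated with the same expressed sequence tag, so they share their target and are not independent. Probe set 1449729_PM_at was at 2.68 and 4.73 in the Flk1+ and Flk1- fractions of the control and 2.89 and 5.85 in those of the knockout. Both Flk1+ values lie below the floor and both Flk1- values above it. In control cells this is at least 2.91-fold lower in the Flk1+ fraction, and in knockout cells at least 6.33-fold lower. The other two of this group gave 3.27, 4.61, 3.44 and 5.64 (1420086_PM_x_at) and 3.04, 4.70, 3.23 and 5.59 (1420085_PM_at), with the same order of the 4 arrays. Between the genotypes, these 3 probe sets were 0.89 to 1.12 higher in knockout Flk1- cells. In Flk1+ cells 1420086_PM_x_at was 0.17 higher in the knockout, and no genotype difference is given for the other two, whose control value was below the floor.

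The fourth Fgf4 probe set, 1450282_PM_at, is annotated with the RefSeq mRNA and gave 4.07, 4.41, 3.95 and 4.58. It ranks the arrays with both Flk1- values on top, but its sort differences were -0.34 in control and -0.63 in knockout cells and its genotype differences -0.12 and 0.17 in Flk1+ and Flk1- cells. Because its mean over the arrays is the highest of the 4, it stands for Fgf4 in the counts below, and the 2-fold sort difference of the other probe sets does not enter them. With the mean of the 4 probe sets, the sort difference of Fgf4 was -1.35 in control and -2.04 in knockout cells. The genotype difference in Flk1+ cells was then 0.11, with the opposite sign, but this mean includes values below the floor.

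Fgf8, a ligand of the primitive streak, had 1 probe set, with 4.09 and 4.50 in the Flk1+ and Flk1- fractions of the control and 4.79 and 4.84 in those of the knockout. Both knockout values were above both control values. The genotype difference was 0.70 in Flk1+ cells, a 1.62-fold difference, and 0.34 in Flk1- cells. The sort difference was -0.40 in control cells. In knockout cells it was -0.05, and this small difference turned to 0.06 after quantile normalization, 0.01 after cyclic loess and 0.10 after centring on the median.

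**Figure D1:**
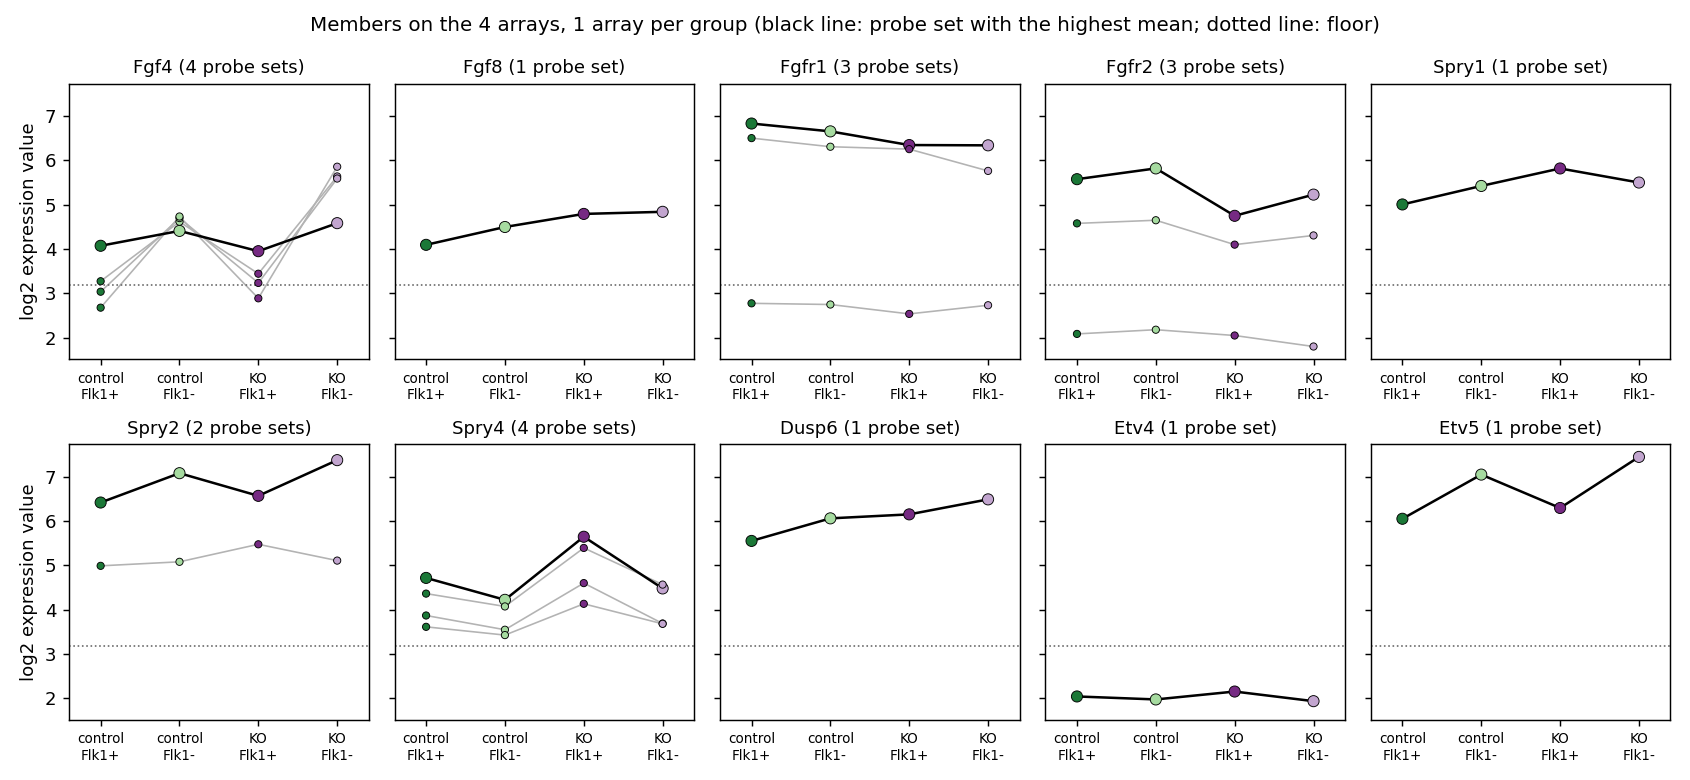
Log2 expression values (vertical axes) of the 10 members on the 4 arrays (horizontal axes: control and knockout, KO, each Flk1+ and Flk1-), 1 point per array, with 1 line per probe set. The black line is the probe set with the highest mean and the dotted line the floor of 3.19; in the Fgf4 panel 3 grey lines are low in both Flk1+ groups while the black line is nearly flat, and in the Spry4 panel all 4 lines peak in knockout Flk1+ cells.

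Both receptor genes were lower in the knockout. Fgfr1, the main FGF receptor of nascent mesoderm, was at 6.83 and 6.65 in the Flk1+ and Flk1- fractions of the control and 6.34 and 6.34 in those of the knockout. Both knockout values were below both control values, by 0.49 in Flk1+ and 0.31 in Flk1- cells. A second probe set (1425911_PM_a_at) gave 6.50, 6.31, 6.25 and 5.76, so its knockout values were also the lower ones, with differences of -0.25 and -0.55. The probe sets differ in which fraction showed the larger gap. The third (1436551_PM_at), at 2.77, 2.75, 2.54 and 2.73, was below the floor on all arrays.

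Fgfr2, a receptor of epithelial and extraembryonic cells, was at 5.57, 5.82, 4.75 and 5.23. The genotype difference was -0.83 in Flk1+ cells, the most negative among the 10 genes, and -0.59 in Flk1- cells. Both knockout values were again below both control values. The second probe set above the floor (1420847_PM_a_at) was at 4.58, 4.65, 4.10 and 4.30, with genotype differences of the same sign, -0.48 and -0.34. Within each genotype Fgfr2 was slightly lower in Flk1+ cells, by 0.24 in control and 0.48 in knockout. The third probe set of Fgfr2 (1443211_PM_at), at 2.08, 2.18, 2.05 and 1.80, was below the floor on all arrays.

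Spry4, a Sprouty protein that inhibits ERK activation downstream of receptor tyrosine kinases, had 4 probe sets that ran in parallel. The probe set with the highest mean was at 4.72 and 4.22 in the Flk1+ and Flk1- fractions of the control and 5.65 and 4.48 in those of the knockout. Probe set 1445669_PM_at was at 4.36, 4.07, 5.39 and 4.57. The last pair, 1422020_PM_at at 3.87, 3.55, 4.60 and 3.69 and 1422021_PM_at at 3.61, 3.43, 4.13 and 3.68, are annotated with the same sequence and are not independent. Knockout Flk1+ cells had the highest value on all 4 probe sets. The genotype difference in Flk1+ cells was 0.93 on this probe set and ranged from 0.52 to 1.03 over the 4, and in Flk1- cells it ranged from 0.14 to 0.49. Spry4 was higher in Flk1+ than in Flk1- cells in both genotypes, by 0.49 in control and 1.17 in knockout cells, a 2.24-fold difference in the latter. Over the 4 probe sets the sort difference ranged from 0.19 to 0.49 and from 0.45 to 1.17. With the mean of its probe sets, Spry4 was 0.84 apart by sort in knockout cells, under 2-fold.

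Spry1 had 1 probe set, at 5.00 and 5.42 in the Flk1+ and Flk1- fractions of the control and 5.82 and 5.50 in those of the knockout. Its highest value, like that of Spry4, was in knockout Flk1+ cells, and the genotype difference there was 0.81, a 1.76-fold difference, against 0.08 in Flk1- cells. The sort difference was -0.42 in control and 0.32 in knockout cells.

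Spry2 had 2 probe sets that disagreed. The one with the highest mean was at 6.42, 7.08, 6.57 and 7.37, with both Flk1- values on top, and its genotype differences were 0.15 in Flk1+ and 0.29 in Flk1- cells. The other (1421656_PM_at) was at 4.99, 5.08, 5.47 and 5.11, with knockout Flk1+ on top as for Spry1 and Spry4, and its genotype differences were 0.49 and 0.03. The order of the 4 groups for Spry2 therefore depends on the probe set.

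Dusp6, the phosphatase that inactivates ERK in the cytoplasm, was at 5.55 and 6.06 in the Flk1+ and Flk1- fractions of the control and 6.15 and 6.49 in those of the knockout on its 1 probe set. It was higher in the knockout by 0.60 in Flk1+ and 0.43 in Flk1- cells and, unlike Spry4, lower in Flk1+ cells in both genotypes. The order of the 4 groups was that of Fgf8.

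**Figure D2:**
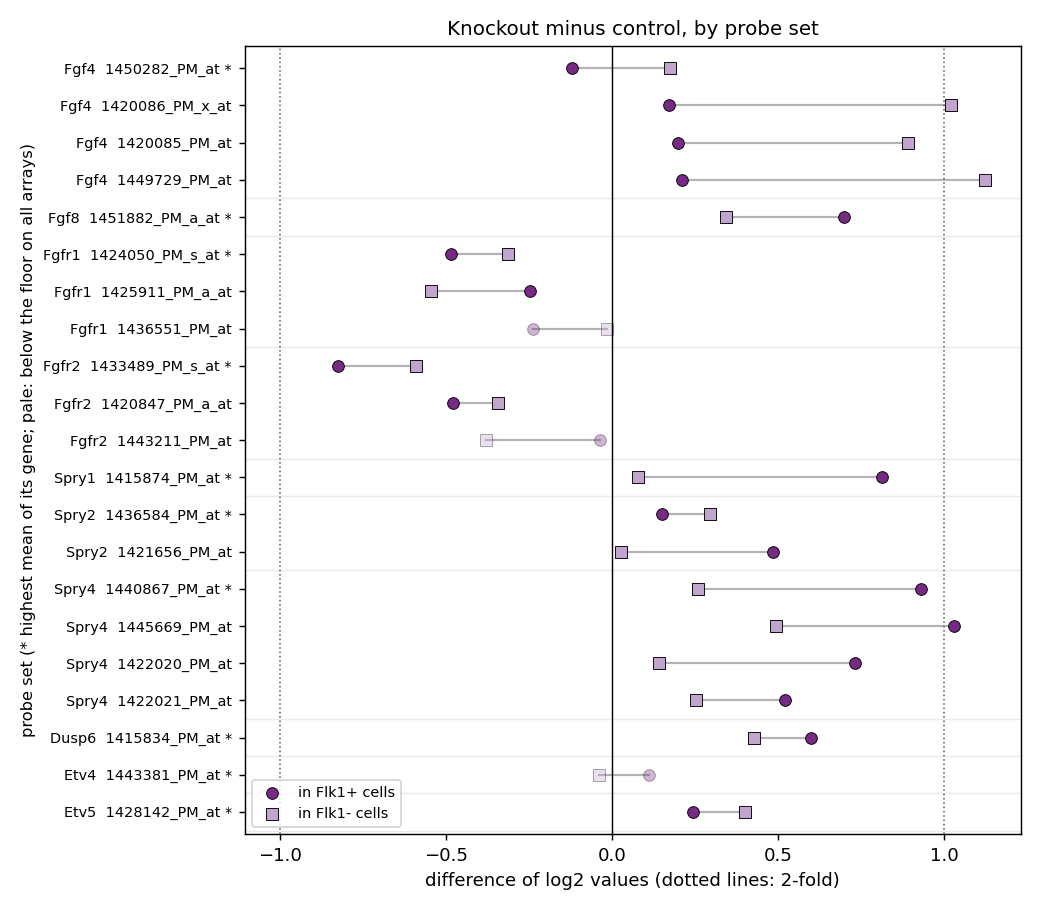
Difference of log2 values, knockout minus control (horizontal axis), for each probe set of the 10 members (vertical axis), with circles for Flk1+ and squares for Flk1- cells, 1 array per group. All probe sets of Fgfr1 and Fgfr2 lie left of 0, those of the Sprouty genes and Dusp6 lie right of it, and the circle is the outer point for Spry1 and for all 4 probe sets of Spry4.

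Etv5, an ETS transcription factor induced by ERK, was at 6.05 and 7.05 in the Flk1+ and Flk1- fractions of the control and 6.29 and 7.45 in those of the knockout. Both Flk1+ values were below both Flk1- values. The sort difference was -0.996 in control cells, 1.99-fold and so just under the 2-fold rule, and -1.15 in knockout cells, 2.22-fold. After cyclic loess the latter was -0.98 and no longer 2-fold. The genotype differences were 0.24 and 0.40 in Flk1+ and Flk1- cells. A further 2 probe sets were paired with both Etv5 and Scpep1 and are not counted for Etv5. They are annotated with the same sequence and are not independent. They gave 0.65 and 0.50 for knockout minus control in Flk1+ cells and 0.17 and 0.36 in Flk1- cells. Their larger genotype difference was thus in Flk1+ cells, unlike that of the Etv5 probe set. By sort the shared probe sets gave -1.05 and -0.50 in control cells and -0.57 and -0.36 in knockout cells, so neither was 2-fold apart in the comparison in which Etv5 was.

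Etv4, its paralogue, was below the floor on all arrays on its 1 probe set, with 2.04, 1.98, 2.15 and 1.94, so no difference is given for it.

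Here and below, shares of all genes and of all probe sets are taken over those above the floor on at least 1 of the arrays compared. Counted over the 9 genes above the floor, 0 were 2-fold or more apart between knockout and control in Flk1+ cells, where 1.85% of all genes were. At the smaller size of 1.5-fold, 5 of 9 were, and 7.68% of all genes: Spry4, Spry1, Fgf8 and Dusp6 were higher in the knockout and Fgfr2 lower. The median difference of the 9 was 0.24, with 6 higher and 3 lower, beside a median of -0.05 over 10655 genes. Spry4 and Spry1 were among the 1.15% and 1.51% of genes that were as far or farther on the higher side, and Fgfr2 among the 1.58% on the lower side. By probe set, 1 of 17 was 2-fold apart (Spry4, 1445669_PM_at), and 1.76% of all probe sets were.

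In Flk1- cells, 0 of the 9 genes were 2-fold apart between knockout and control (1.34% of all genes), and 1 of 9 was 1.5-fold apart, Fgfr2 (5.51% of all genes). The median was 0.26, with 7 higher and 2 lower, beside 0.04 over 10533 genes. By probe set 2 of 18 were 2-fold apart, both of Fgf4, and 1.29% of all probe sets were. Both are among the Fgf4 probe sets that share their target, so they are not independent. Fewer members were 1.5-fold apart by genotype in Flk1- than in Flk1+ cells, but whether the fractions differ could not be tested. The difference of differences, which is positive where the genotype difference was the more positive in Flk1+ cells, was 0.73 for Spry1 and 0.67 for Spry4. These 2 of 9 genes were past 1.5-fold, as were 10.9% of all genes, and 0 were past 2-fold (1.58% of all genes).

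Between the sorted fractions of control cells, 0 of 9 genes were 2-fold apart (2.7% of all genes) and 2 of 9 were 1.5-fold apart, Etv5 and Spry2, both lower in Flk1+ cells (8.25% of all genes). By probe set 3 of 18 were 2-fold apart, all of Fgf4, beside 2.5% of all probe sets. These 3 share their target, so they are not 3 separate observations and their share is not comparable with 2.5%. Of them, 1449729_PM_at and 1420085_PM_at were below the floor in control Flk1+ cells (2.68 and 3.04). The median was -0.40, with 7 of 9 genes lower in Flk1+ cells, beside -0.01 over 10622 genes. Spry4 and Fgfr1 were the exceptions, at 0.49 and 0.18.

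In knockout cells, 2 of 9 genes were 2-fold apart by sort, Spry4 higher and Etv5 lower in Flk1+ cells, and 3.79% of all genes were. At 1.5-fold 4 of 9 were, with Fgf4 and Spry2 added on the lower side, and 15.0% of all genes. By probe set 5 of 18 were 2-fold apart (3 of Fgf4, 1 each of Spry4 and Etv5), beside 3.67% of all probe sets. The 3 of Fgf4 are again the ones that share their target, and 1449729_PM_at was below the floor in knockout Flk1+ cells (2.89). The median was -0.34, beside -0.08 over 10688 genes. Centring each array on its detected genes moved the median over all genes in this comparison to 0.09 and that of the members to -0.19. The median of the members was -0.17 after quantile normalization, -0.17 after cyclic loess and -0.21 without probe sets ending in _s_at or _x_at. The genotype comparison in Flk1+ cells, the sort comparison in knockout cells and the difference of differences all use the knockout Flk1+ array, so the values of Spry1 and Spry4 in them are not separate observations. That array also had the lowest 3' minus 5' Gapdh signal, and the part of this in the result was not tested.

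**Figure D3:**
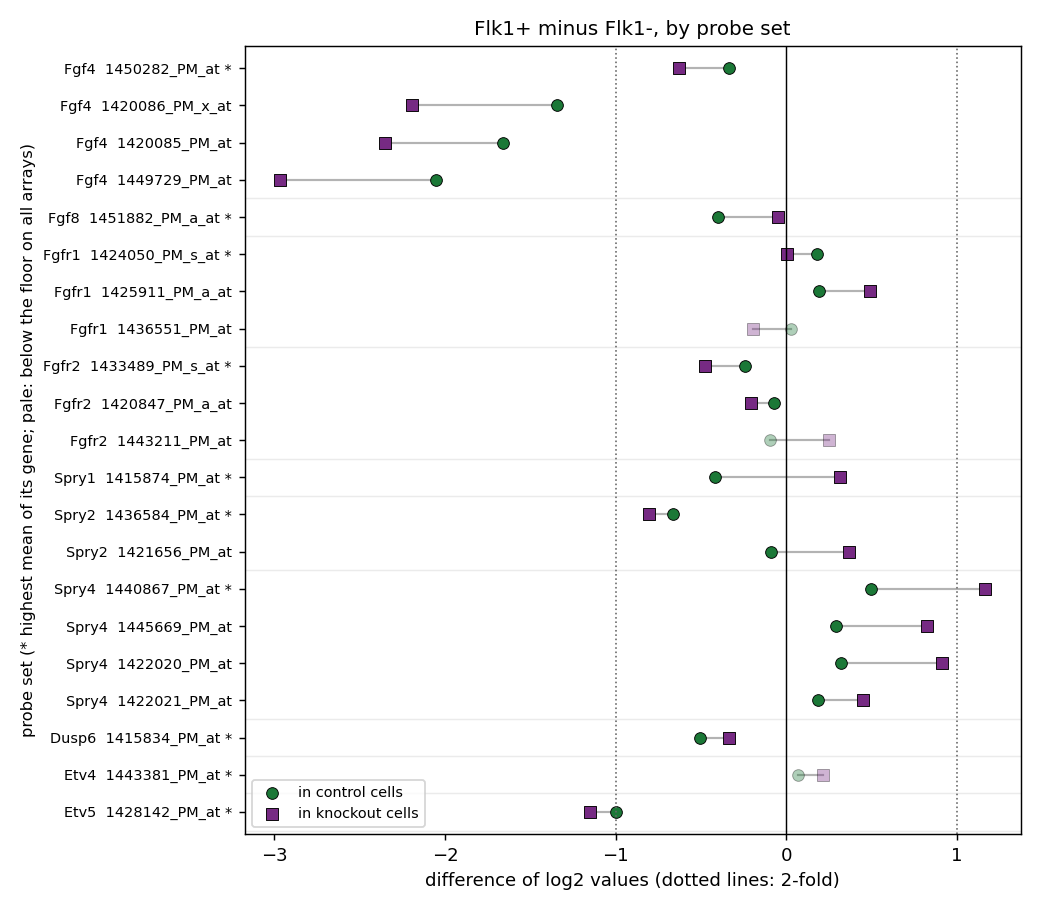
Difference of log2 values, Flk1+ minus Flk1- (horizontal axis), for each probe set of the 10 members (vertical axis), with circles for control and squares for knockout cells, 1 array per group. The 3 Fgf4 probe sets with a shared tag lie beyond the 2-fold line on the left, Etv5 lies close to it, Spry4 lies right of 0 throughout, and Spry1 lies on both sides.

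Markers of several cell types followed some of these genes in part of the comparisons. Since each array holds RNA of a whole sorted fraction, fewer cells of a type and less RNA per cell cannot be told apart. The pluripotent cell markers, 11 of 12 named on the array, had mean log2 values of 3.46, 5.94, 4.69 and 6.81, and 6, 11, 8 and 11 of them were above the floor. These means were thus lowest and highest in the same groups as the 3 parallel Fgf4 probe sets and as Etv5. The same holds for Fgf8, Dusp6, the Spry2 probe set of highest mean and the primed epiblast markers below, so it is not particular to Fgf4 and Etv5. Klf4 on this list was lowest in knockout Flk1+ cells instead. Dppa3 and Sox2, which led this list in the control sort comparison, were at 3.14 and 2.71 in control Flk1+ cells, below the floor, and at 6.94 and 6.41 in control Flk1- cells.

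The primed epiblast markers, all 8 named and 7 above the floor on each array, had means of 6.03, 6.79, 6.88 and 7.31, which is the order of Fgf8 and Dusp6. Cldn6 and Fgf5, the farthest apart by genotype in Flk1+ cells, were 1.54 and 1.52 higher in the knockout, with 0.87 on the second probe set of Fgf5. The lateral plate and cardiac mesoderm markers, all 11 named, had means of 6.55, 6.50, 5.15 and 4.57, lower in the knockout as Fgfr1 and Fgfr2 were, with 10, 11, 9 and 9 of 11 above the floor. Actc1 and Tnnt2, both of cardiac muscle, were at 2.29 (below the floor) and 4.12 in knockout Flk1+ cells and at 5.15 and 6.88 in control Flk1+ cells. The endothelial and hemangioblast markers, all 12 named, had means of 5.80, 3.20, 5.50 and 2.94, higher in both Flk1+ groups as Spry4 was, with 12, 5, 11 and 6 of 12 above the floor. By genotype in Flk1+ cells they did not go with Spry4, which was higher in the knockout. There 8 of these 12 markers were lower and 4 higher in the knockout, with a median of -0.31. Kdr and Fli1 led them in the knockout sort comparison, with Fli1 at 5.49 in Flk1+ cells and below the floor in Flk1- cells, at least 4.90-fold lower. The part of the cell makeup in the values of the FGF genes was not tested.

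For the remaining lists the farthest genes are those of the genotype comparison in Flk1+ cells. The primitive streak markers, 11 of 12 named, had means of 4.56, 4.07, 4.34 and 4.16, with 7, 7, 8 and 7 above the floor, and Eomes and Mixl1 were at -0.82 and -0.76. Of the 8 above the floor in that comparison, 4 were higher and 4 lower in the knockout, with a median of -0.16. The endoderm markers, all 10 named, had means of 4.68, 5.15, 4.92 and 5.03, with 9, 8, 8 and 8 above the floor. Cer1 was 2.18 higher in the knockout and Ttr was at -2.10, with probe sets from 2.18 to 3.20 and from -2.10 to -0.60. The primitive erythroid markers, 6 of 7 named, had means of 3.80, 6.81, 2.35 and 2.42, with 4, 6, 1 and 1 above the floor. Hba-x, an embryonic globin, was below the floor in knockout Flk1+ cells and so at least 3.77-fold lower there than in the control. Hbb-bh1, likewise a globin and below the floor there, was lower by at least 5.17-fold. Markers of fibroblasts, a check for feeder cells, had means of 4.04, 3.22, 3.13 and 2.81 over 8 genes, with 4, 4, 2 and 2 above the floor. The 4 above the floor in the genotype comparison of Flk1+ cells had a median of -1.88 there, so they were lower in the knockout, as Fgfr1 and Fgfr2 were. Among these 4, Pdgfrb was at only -0.27. The other 4, Col1a2, Dcn, Lum and Thy1, were below the floor on all 4 arrays. The collagen gene Col1a1 was at 6.53 in control and 3.99 in knockout Flk1+ cells, and Col3a1 was at least 3.74-fold lower on 1 of its 2 probe sets, which ranged from -2.06 to -0.43. Their part in the values of the receptor genes was not tested.

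The rest of the pathway was read from 5 lists with 106 symbols, of which 92 were named on the array. Between knockout and control in Flk1+ cells, 68 were above the floor, 2 were 2-fold or more higher and 4 lower, and their median difference was -0.07. Fgf15, counted among the 4, was below the floor in knockout Flk1+ cells, so only a difference of at least 1.81-fold is shown for it. Over all genes 0.873% were higher and 0.976% lower, with a median of -0.05. In Flk1- cells 66 were above the floor, 0 were 2-fold higher and 1 was lower, with the same median of -0.07, beside 0.389% and 0.949% of all genes and a median of 0.04.

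Among the other 20 FGF ligands, 8 were above the floor for the genotype comparison in Flk1+ cells. Fgf5, an epiblast ligand that is also on the primed epiblast list, was at 7.26 and 8.43 in the Flk1+ and Flk1- fractions of the control and 8.78 and 9.37 in those of the knockout. Its order was that of Fgf8, and it was 1.52 and 0.94 higher in the knockout in Flk1+ and Flk1- cells. Its other probe set gave 0.87 and 0.44, under 2-fold. Fgf3 went the other way, at 5.45, 4.11, 3.82 and 3.52, 3.11-fold lower in knockout than in control Flk1+ cells on this probe set, but its 2 probe sets ranged from -1.64 to -0.14. Fgf15 was at 4.05 in control Flk1+ cells and below the floor in knockout Flk1+ cells, at least 1.81-fold lower.

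Of the 11 other receptors and co-receptors above the floor, Gpc4, a heparan sulfate proteoglycan, was 1.19 higher in knockout Flk1+ cells, with 7.23, 8.06, 8.41 and 8.50 over the 4 groups. Sdc4, another proteoglycan that binds FGFs through its sugar chains, was 1.43 lower in Flk1+ than in Flk1- cells of the control, and its 2 probe sets ranged from -1.43 to -0.66. Of the adaptors and kinases between receptor and ERK, 15 of 23 were named on the array, 14 were above the floor for the genotype comparison in Flk1+ cells and 13 in Flk1- cells, and 0 were 2-fold apart in either of these or in the sort comparisons.

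Of 13 other negative regulators above the floor, Dusp9, an ERK phosphatase, was at 6.82, 5.61, 5.66 and 5.31, 1.16 lower in knockout Flk1+ cells, and its 3 probe sets ranged from -1.16 to -0.47. Dusp4, a nuclear ERK phosphatase, was at 6.48, 6.47, 7.30 and 6.30, so knockout Flk1+ cells had the highest value, as for Spry1 and Spry4, and the sort difference in knockout cells was 1.004. Dusp7, a cytoplasmic ERK phosphatase, was 0.86 higher in control and 1.09 higher in knockout Flk1+ cells than in the Flk1- cells, with probe sets from -0.01 to 0.86 and from 0.51 to 1.23.

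The 22 other ERK and ETS response genes above the floor had medians of -0.16 and -0.18 for genotype in Flk1+ and Flk1- cells. Ets1, an ETS factor of endothelium and mesoderm, was at 6.53, 4.42, 5.36 and 3.25, 2.25-fold lower in the knockout in each fraction and 2.11 and 2.10 higher in Flk1+ cells of control and knockout. Its 4 probe sets ranged from -1.17 to -0.32 and from -1.17 to -0.31 by genotype, and from 0.68 to 2.44 and from 0.79 to 2.14 by sort. Ets2 and Elk3, also ETS factors, were 1.56 and 1.04 higher in Flk1+ cells of the control and 1.15 and 1.39 higher in those of the knockout. The 3 probe sets of Elk3 ranged from 1.04 to 3.04 in the control and from 1.39 to 2.98 in the knockout sort. Myc was 1.10 higher in Flk1+ cells of both genotypes, and Phlda1 was 1.31 higher in those of the knockout.

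**Figure D4:**
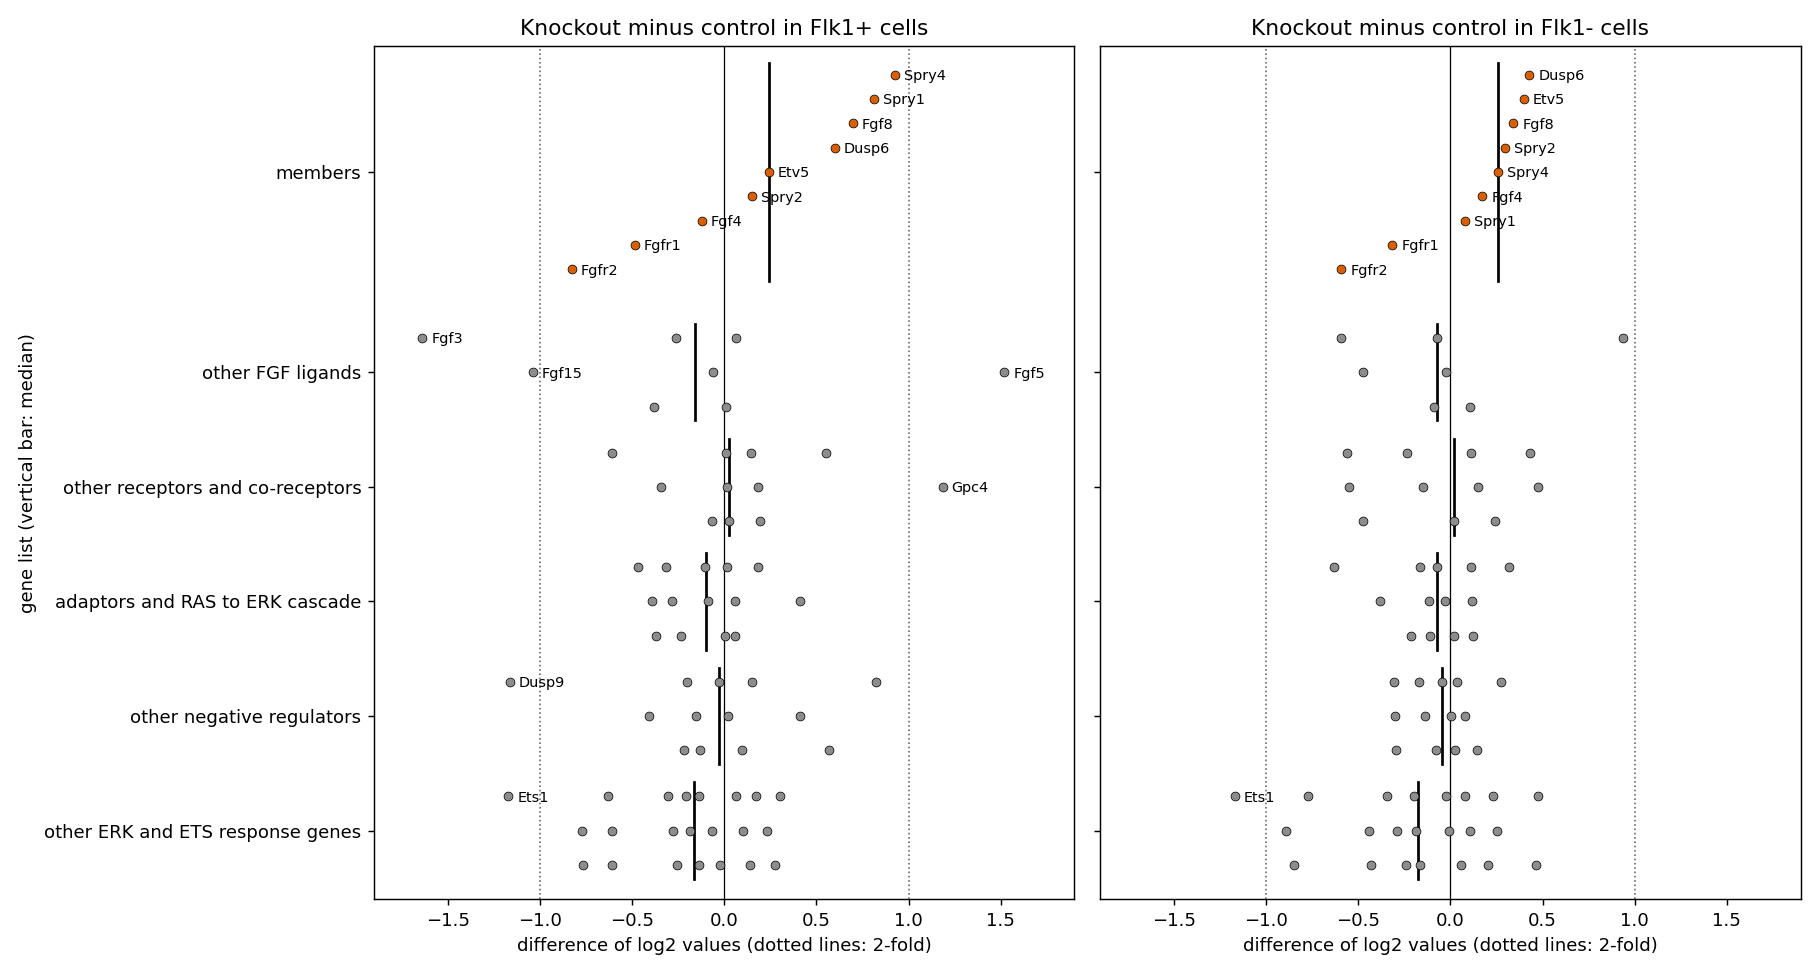
Difference of log2 values, knockout minus control (horizontal axes), in Flk1+ (left) and Flk1- cells (right) for the 9 members above the floor and the other pathway genes above the floor by list (vertical axis), 1 point per gene, with vertical bars at the medians of each list and names for the members and genes 2-fold apart. The median of the members lies at 0.24 on the left and 0.26 on the right, and those of the other lists lie between -0.18 and 0.02.

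Genes with the most similar 4-array pattern were sought for the 3 members whose values spanned at least 1 on the log2 scale, among 10502 genes, by the Euclidean distance between the 4 values after centring each gene on its mean. For Etv5 they were Smim22, Phc1 and Gsr, at distances of 0.05, 0.08 and 0.10. Smim22 was below the floor in both Flk1+ fractions, so its place rests partly on values that were otherwise set aside as low. For Fgfr2 they were Smad7, Ptch1 and Rnf19a, at 0.12, 0.13 and 0.14, and for Spry4 they were Mmp17, Sprr2a1 and St8sia4, at 0.19, 0.20 and 0.20. Mmp17 was below the floor in both Flk1- fractions, so the same holds for it. Smad7, an inhibitor of TGF-beta signalling, was at 6.16, 6.29, 5.36 and 5.73 where Fgfr2 was at 5.57, 5.82, 4.75 and 5.23. With 4 arrays such a likeness rests on 4 values per gene.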

How the data were processed

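The table the authors deposited holds log2 expression values for 45141 probe sets on 4 arrays. The submitters' processing notes name RMA and limma, whose versions and roles are not given in the sources used here. Amplified cDNA was made from 50 ng of total RNA, per the labels' protocols. The values were used as deposited. The 104 control probe sets were left out, 28898 probe sets had 1 gene in the platform annotation, 551 had several and 15588 had none. Differences were computed with Python 3.11.15 and counted at 2-fold for genes whose level exceeded the floor on either array compared. With 1 array per group no test was run, and the number of arrays limits the precision. The rules were tested on simulated data. The members and all gene lists were chosen with earlier results of these data known. Named were all members, pathway genes 2-fold apart between 2 arrays, and the 2 genes of a marker list farthest from 0 in the comparison given beside it. Alternatives covered the size rule, the floor, scaling (limma 3.58.1; cyclic loess with span 0.3 and 3 rounds) and the choice of probe set.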

Additional observations from a re-analysis of the deposited data

Results flagged for a closer look

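The sort difference of Spry1 had opposite signs in the genotypes, -0.42 in control and 0.32 in knockout cells. The genotype difference of Fgf4, on the probe set with the highest mean, was -0.12 in Flk1+ and 0.17 in Flk1- cells. Each rests on 1 array per group, and neither difference between the groups was tested.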

How the results depend on the processing

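The count of members 2-fold apart and their median difference were recomputed in 5 comparisons under 11 alternatives. Of 100 such values 86 stayed within 1.5 times the count or within the SD of 79 silent receptor genes (0.13 to 0.20). Part of these could not change, so the share overstates how stable the results are. A count of 0 at 2-fold is again 0 at 3-fold. A floor at the median, or values below the floor set to it, left the same 9 members with the same values. With the 1.5-fold rule the counts were 5 and 1 by genotype in Flk1+ and Flk1- cells, 2 and 4 by sort in control and knockout cells, and 2 for the difference of differences. With the 3-fold rule the knockout sort count was 0. Quantile normalization gave 1 by genotype in Flk1+ cells (Spry4, at 1.01). Cyclic loess gave 1 in the knockout sort. The mean, and the median chosen after seeing the data, of a gene's probe sets each gave 1 in the control sort (Fgf4). With that mean the knockout sort median, -0.34 in the deposited values, was -0.15. Under the other scalings it was -0.17 to -0.19, and those values count among the 86. The median of the difference of differences, -0.14, became 0.16 with the mean of the probe sets, 0.17 with their median and 0.17 without those ending in _s_at or _x_at. The choice of probe set is all that differs in these. That median was also -0.03 after quantile normalization, -0.01 after cyclic loess, -0.03 after centring and 0.003 with no floor, so its sign is not settled. Of 270 values for single members 45 moved by more than that SD and 9 had the other sign, 3 of them under another scaling, all of Fgf8 in the knockout sort. In the deposited values 173 genes were 2-fold higher and 232 lower in that sort, and 223 and 147 after centring. The same 2 counts by genotype were 93 and 104 in Flk1+ cells, and 120 and 84 after centring. For the difference of differences they were 82 and 91, and 119 and 52 after centring. No paired analysis was possible because each group has 1 array.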
